A study of Mus musculus with 10 samples.

Results

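The cell cycle of mouse liver was followed through 38 genes, chosen by name out of the 38922 genes in the deposited expression tables. They comprised 8 G1 cyclins and kinases, 2 inhibitors of cyclin-dependent kinases (CDK), 3 activating E2F factors, 11 genes of origin licensing and DNA replication, 12 genes of G2 and mitosis, and 2 stress-responsive polo-like kinases. RNA was measured by sequencing in whole liver of wildtype male mice of the inbred strain C57BL/6N, aged 6 weeks. One group of 5 mice received an intraperitoneal injection of a CD95-activating antibody (CD95-Ab) at 0.5 µg/g body weight, and 5 control mice received the same volume of saline. All livers were taken 6 h after injection, so a single time point stood for each group. CD95, also called Fas, is a death receptor on hepatocytes, and the antibody sets off their apoptosis and acute liver failure.

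In a healthy adult liver nearly all hepatocytes rest outside the cell cycle, and they can return to it after tissue loss. D-type cyclins with Cdk4 or Cdk6 open the way through G1 by phosphorylating the retinoblastoma protein, which frees E2F factors to switch on genes for DNA synthesis. Cyclin E with Cdk2 then brings the cell into S phase, and cyclin A, the B-type cyclins, Cdk1, Plk1 and the Aurora kinases take it through G2 and mitosis. The E2F-driven wave of transcripts comes before the mitotic wave, which depends on Foxm1 and on the complex that reads promoter elements called CHR.

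Depth ranged from 25965699 to 62097636 counts per mouse, and 3 counts, taken as the floor of detection, corresponded at these totals to between 0.0483 and 0.1155 CPM. CPM are counts per 1000000, and those given for genes use totals corrected by the trimmed mean of M values (TMM). All 38 members passed the filter on low counts, as did 13719 genes in all, and each was tested between groups with the quasi-likelihood fit in edgeR, with Benjamini-Hochberg adjustment over all of them (FDR). A gene was called higher or lower at an FDR of 0.05 or less. Exons of 12 members overlap those of another counted gene, and whether reads were counted by strand is not stated. The tissue carried the markers of liver, since 8 hepatocyte markers such as Alb and Ttr summed to 105000 to 131000 CPM in saline-injected mice. After CD95-Ab they summed to 49200 to 88200 CPM, and 3 of the 8 were lower, against 22.0% of all tested genes. In bulk tissue, fewer cells of a type and less RNA per cell cannot be told apart.

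Of the 38 cell cycle genes, 10 were higher and 3 lower after CD95-Ab than after saline, and 25 were not called. The higher genes were Ccnd2, Cdk6, E2f2, E2f3, Mcm2, Mcm3, Mcm4, Pcna, Plk2 and Plk3. The lower genes were Cdkn2c, E2f1 and Rrm2. The share called in either direction was 34.2%, against 47.3% of all tested genes. The higher share was 26.3%, against 25.4% of all tested genes, and the lower share was 7.89%, against 22.0%. Cell cycle genes were therefore called higher about as often as liver genes at large, and the median log2 fold change was 0.07 against 0.006 for all tested genes. That median depended on single mice, as it was -0.10 without CD95-Ab replicate 3, -0.07 without saline replicate 3 and -0.01 without saline replicate 1, and it was -0.02 with upper-quartile factors. DESeq2 called 10 members higher and 4 lower.

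Only Ccnd2 and Plk2 rose by a log2 fold change of 2 or more, against 6.59% of all tested genes. None fell by 2 or more, against 1.11% of all tested genes, and none did so at an unadjusted p under 0.05 or with DESeq2. All 5 mice given CD95-Ab lay above all 5 controls for 6 members, which were Ccnd2, E2f3, Mcm3, Mcm4, Pcna and Plk2. These were 15.8% of the members, against 18.6% of all tested genes. Cdkn2c alone lay below the controls in every mouse, or 2.63% of the members against 14.7%.

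**Figure D1:**
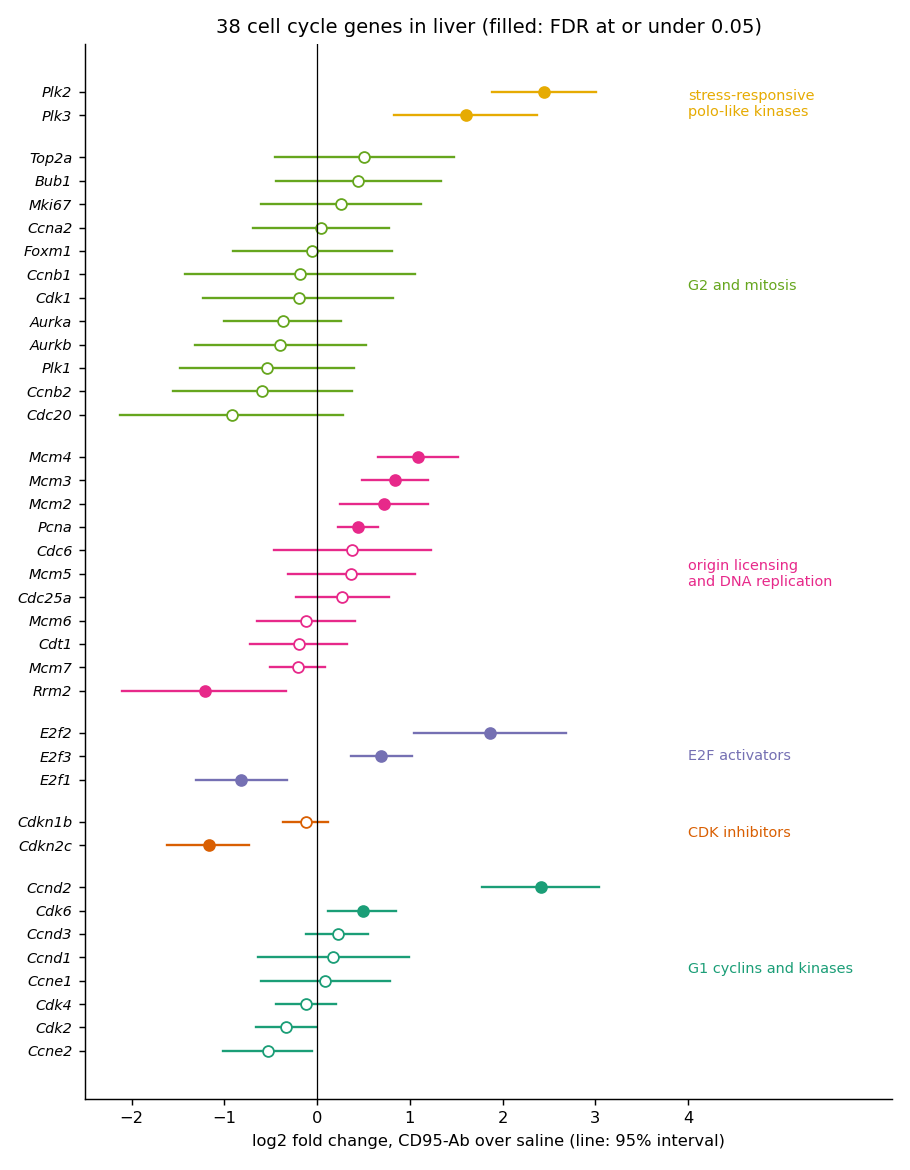
Log2 fold change (CD95-Ab over saline, horizontal axis) of the 38 genes, 1 row a gene, grouped by role, with lines for the 95% interval and filled points for an FDR of 0.05 or less. The filled points lie among the G1, CDK inhibitor, E2F, replication and stress-responsive groups, and all 12 genes of G2 and mitosis are open with intervals that span 0.

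Among D-type cyclins, the partners of Cdk4 and Cdk6, Ccnd2 was the one called. Ccnd2 (ENSMUSG00000000184, chromosome 6, 127125162 to 127152193, GRCm38) was measured at 4.33, 3.02, 3.72, 2.42 and 1.35 CPM in saline replicates 1 to 5, and at 18.1, 15.9, 16.4, 9.77 and 18.9 CPM in CD95-Ab replicates 1 to 5. The groups did not overlap, and the lowest treated mouse, replicate 4, exceeded the highest control. The mean of Ccnd2 was 2.97 ± 1.15 CPM in controls and 15.8 ± 3.59 CPM after CD95-Ab (SD, n = 5). Its log2 fold change was 2.41 (SE 0.29, edgeR FDR 4.42e-05). An antisense gene, 9330179D12Rik, shares exon sequence with Ccnd2, and it had at most 0.0637 CPM in any mouse.

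Ccnd1 (ENSMUSG00000070348, chromosome 7, 144929931 to 144939925) is the D-type cyclin best known from liver regeneration. Its levels were 14, 12.4, 29.2, 43.6 and 27.4 CPM in the controls and 34.7, 34.8, 39.0, 11.8 and 22.0 CPM after CD95-Ab. The groups overlapped almost wholly, and the highest control, replicate 4, exceeded every treated mouse. The log2 fold change of Ccnd1 was 0.17 (95% interval -0.64 to 0.99, edgeR FDR 0.73), and it was -0.01 without saline replicate 2. Ccnd3 (ENSMUSG00000034165, chromosome 17, 47505051 to 47599691), a D-type cyclin of many tissues, had 19.8, 19.6, 21.8, 19.7 and 30.9 CPM in the controls and 23.5, 27.1, 30.4, 28.1 and 21.1 CPM after CD95-Ab. Control replicate 5 lay far above the other 4 controls and above every treated mouse. Ccnd3 was not called with all mice (log2 fold change 0.22, SE 0.15, edgeR FDR 0.273), and without saline replicate 5 it was called (0.36, edgeR FDR 0.0296). On the opposite strand LTO1 overlaps Ccnd1 and was lower (-0.66, FDR 0.0277), and Bysl overlaps Ccnd3 and was higher (0.65, FDR 0.0038).

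The amounts by which D-type cyclins differed were compared within each mouse, as the log2 ratio of CPM + 0.1. The Ccnd1 to Ccnd2 ratio fell from 2.99 ± 1.18 to 0.76 ± 0.48 (SD, n = 5, exact permutation test over mice, two-sided, p = 0.00794, adjusted over 8 family pairs to 0.0212). This p is the smallest that 5 mice against 5 can give. Every control had a higher ratio than every treated mouse. The Ccnd1 to Ccnd3 ratio was 0.05 ± 0.73 in controls and 0.02 ± 0.73 after CD95-Ab (exact permutation test, n = 5, adjusted p = 0.913).

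**Figure D2:**
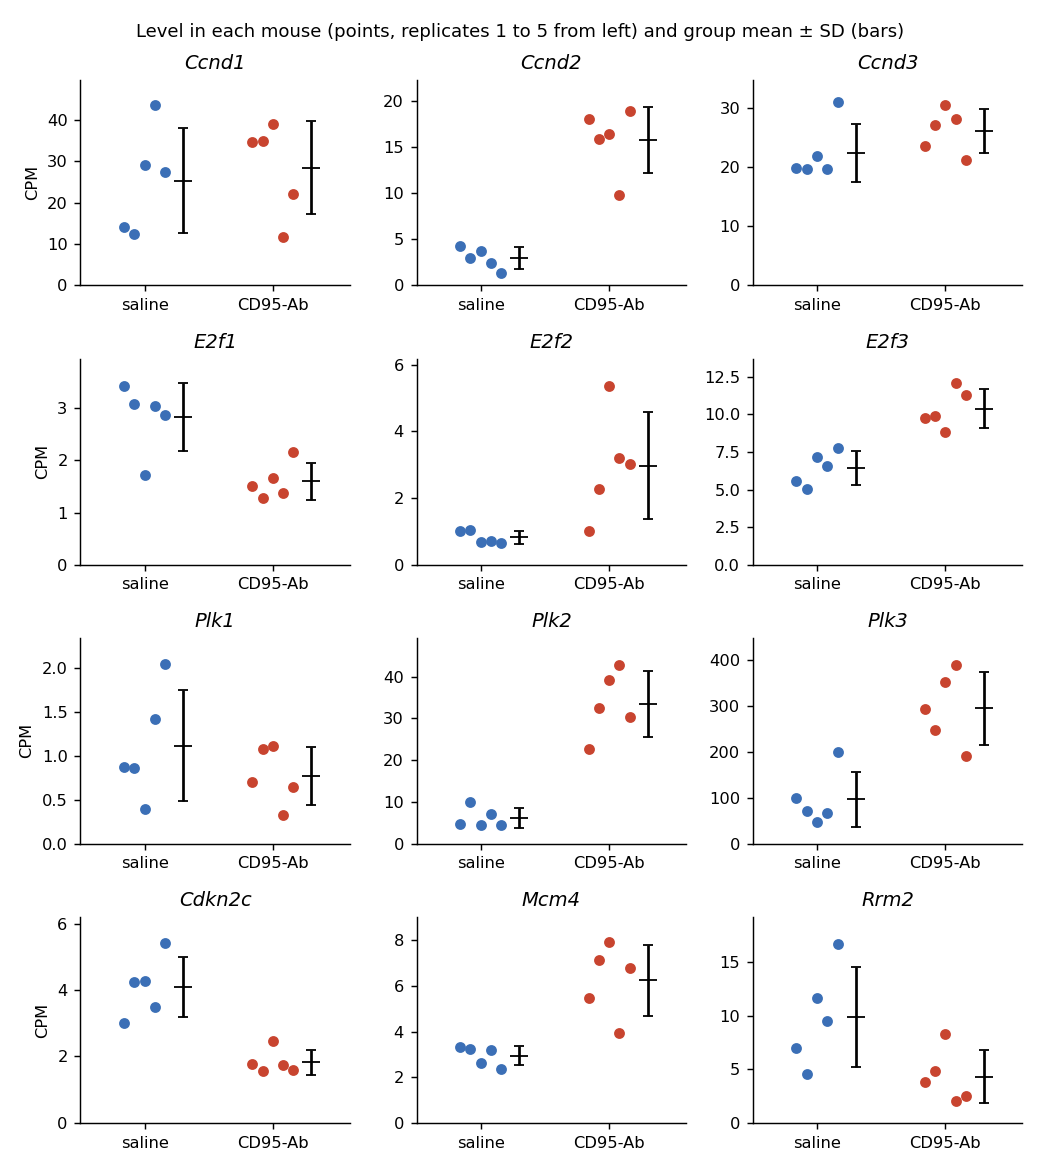
CPM (vertical axis, from 0) of 12 genes in each mouse, as points with replicates 1 to 5 from left in each group, beside the group mean ± SD. Ccnd2, Plk2, E2f3 and Mcm4 show no overlap between groups with CD95-Ab above, Cdkn2c shows none with CD95-Ab below, and the Ccnd1 and Plk1 groups overlap.

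Of the kinases that cyclins activate in G1, Cdk6 alone was called. Cdk6, which acts with D-type cyclins, had 2.85, 2.61, 3.55, 2.96 and 2.50 CPM in the controls and 4.49, 3.57, 4.14, 3.23 and 4.78 CPM after CD95-Ab. Replicate 4 of the treated mice lay inside the control range, and the other 4 lay above it. Cdk6 rose by a log2 fold change of 0.49 (SE 0.17, edgeR FDR 0.0307). The call on Cdk6 was lost without saline replicate 1, 2, 4 or 5 or CD95-Ab replicate 1 or 5 (edgeR FDR 0.0592 to 0.0721), and also with no filter on low counts (0.0827), with upper-quartile factors (0.0535) and with unadjusted totals (0.137).

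Cdk4, the other kinase of D-type cyclins, had a log2 fold change of -0.12 (edgeR FDR 0.539), with all controls but replicate 5 between 40.0 and 44.5 CPM and replicate 5 at 61.1 CPM. Tspan31 shares exon sequence with Cdk4 on the other strand and fell by 0.49 on the log2 scale (edgeR FDR 0.00474). Cdk2 and its cyclins Ccne1 and Ccne2 bring cells into S phase. Cdk2 had a log2 fold change of -0.33 (edgeR FDR 0.0833), Ccne1 of 0.09 (FDR 0.829) and Ccne2 of -0.53 (FDR 0.0645). With upper-quartile factors Cdk2 (-0.41, edgeR FDR 0.0421) and Ccne2 (-0.61, FDR 0.0341) were called lower. DESeq2 called Ccne2 lower (adjusted p = 0.0452), and edgeR did so without saline replicate 4 (FDR 0.048). On the other strand Ints8 overlaps Ccne2, had 10.3 to 16.2 CPM and was not called (-0.14, edgeR FDR 0.405). Neither the Ccne1 to Ccne2 ratio (0.33 ± 0.72 to 0.98 ± 0.35, exact permutation test, n = 5, adjusted p = 0.159) nor the Cdk4 to Cdk6 ratio (3.92 ± 0.41 to 3.35 ± 0.38, adjusted p = 0.111) passed the test on all mice. Without saline replicate 5 the former had an adjusted p of 0.0476, and without CD95-Ab replicate 4 the latter had 0.0423, in the same exact permutation test.

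Of the CDK inhibitors, Cdkn2c fell and Cdkn1b was not called. Cdkn2c (ENSMUSG00000028551, chromosome 4, 109660876 to 109667189) encodes p18, an inhibitor of Cdk4 and Cdk6. It had 3.01, 4.24, 4.28, 3.50 and 5.43 CPM in the controls and 1.76, 1.56, 2.47, 1.74 and 1.59 CPM after CD95-Ab. Each treated mouse lay under each control, with replicate 3 set above the other 4 treated mice. Cdkn2c fell by 1.17 on the log2 scale (SE 0.20, edgeR FDR 0.000649), to 0.444 times the control level. Cdkn1b, which encodes p27, a brake on cyclin E with Cdk2, was held between 13.2 and 19.3 CPM in all 10 livers, with a log2 fold change of -0.12 (95% interval -0.37 to 0.12, edgeR FDR 0.394).

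Cdkn1a encodes p21, the CDK inhibitor induced by p53, and belonged to the wider list of G1 regulators given below. It had 2.38, 0.889, 17.8, 23.6 and 12.1 CPM in the controls and 35.4, 156, 191, 65.2 and 69.1 CPM after CD95-Ab. The lowest treated mouse exceeded the highest control, although both groups were widely spread. The log2 fold change of Cdkn1a was 3.19 (SE 0.77, edgeR FDR 0.00503), opposite in sign to that of Cdkn2c.

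The activating E2F factors were all called, and not in the same direction, against 47.3% of all tested genes called in either direction. E2f1 (ENSMUSG00000027490, chromosome 2, 154559407 to 154569892), the founding member, had 3.43, 3.08, 1.72, 3.04 and 2.87 CPM in the controls and 1.51, 1.27, 1.67, 1.37 and 2.17 CPM after CD95-Ab. Control replicate 3 lay at the level of the treated mice, and the other controls lay above them. E2f1 fell by 0.82 on the log2 scale (SE 0.23, edgeR FDR 0.011).

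E2f3 (ENSMUSG00000016477, chromosome 13, 29906575 to 29986063) had 5.58, 5.01, 7.16, 6.58 and 7.77 CPM in the controls and 9.76, 9.87, 8.84, 12.1 and 11.3 CPM after CD95-Ab. The groups did not overlap. E2f3 rose by a log2 fold change of 0.69 (SE 0.15, edgeR FDR 0.00264). The ratio of E2f1 to E2f3 fell from -1.17 ± 0.55 to -2.64 ± 0.32 on the log2 scale (SD, n = 5, exact permutation test, p = 0.00794, adjusted p = 0.0212).

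E2f2 (ENSMUSG00000018983, chromosome 4, 136172394 to 136196057) had 1.01, 1.04, 0.676, 0.693 and 0.649 CPM in the controls and 0.995, 2.26, 5.37, 3.19 and 3.03 CPM after CD95-Ab. Replicate 1 of the treated mice stayed inside the control range while replicate 3 lay far above the rest. E2f2 rose by a log2 fold change of 1.86 (SE 0.38, edgeR FDR 0.00175). Markers of red blood cells rose in the same livers: 7 erythroid markers, the globin genes among them, were all higher, against 25.4% of all tested genes. They summed to 135 to 325 CPM in controls and to 1060, 7060, 34000, 20700 and 5360 CPM in CD95-Ab replicates 1 to 5. The treated mouse with the least E2f2 and the one with the most were also those with the lowest and highest erythroid sums. The same held for the neutrophil (109 and 435 CPM), sinusoidal endothelial (146 and 275) and cholangiocyte (23.7 and 99.0) marker sums. It did not hold for the other marker lists. Most of the cholangiocyte sum after CD95-Ab came from Sox9, with a mean of 58.4 CPM. The part of these cells in the E2f2 result was not tested.

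Genes of origin licensing and DNA replication gave 4 higher and 1 lower among 11, or 36.4% and 9.09%, against 25.4% and 22.0% of all tested genes. Mcm2 to Mcm7 encode the subunits of the replicative helicase, and 3 of the 6 were called, all higher. Mcm4 (ENSMUSG00000022673, chromosome 16, 15623897 to 15637400) had 3.32, 3.23, 2.62, 3.19 and 2.37 CPM in the controls and 5.49, 7.13, 7.92, 3.96 and 6.80 CPM after CD95-Ab. The groups did not overlap, and replicate 4 of the treated mice came closest to the controls. Mcm4 rose by a log2 fold change of 1.09 (SE 0.20, edgeR FDR 0.000862).

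Mcm3 rose by 0.84 on the log2 scale (SE 0.17, edgeR FDR 0.00148) and Mcm2 by 0.72 (SE 0.22, FDR 0.0169), the call on Mcm2 being lost with unadjusted totals (FDR 0.0688). Mcm5 had a log2 fold change of 0.37 (FDR 0.349), Mcm6 of -0.12 (FDR 0.713) and Mcm7 of -0.21 (FDR 0.235). The 95% interval of Mcm7, -0.51 to 0.09, lay under the estimates of Mcm2, Mcm3 and Mcm4, but the difference between helicase subunits was not tested. Ap4m1, which shares exon sequence with Mcm7 on the other strand, fell by 0.68 on the log2 scale (edgeR FDR 0.0013). Cops6, which overlaps Mcm7 in the same way, had 48.1 to 72.6 CPM and was not called (-0.27, edgeR FDR 0.0642).

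Pcna, the sliding clamp of DNA polymerases, had the narrowest range of all members in the treated group. It had 20.7, 19.8, 19.3, 20.7 and 25.0 CPM in the controls and 28.8, 28.7, 29.9, 27.9 and 28.0 CPM after CD95-Ab. The treated mice differed by 1.07 times from lowest to highest and lay above every control. Pcna rose by 0.44 on the log2 scale (SE 0.10, edgeR FDR 0.00328).

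Rrm2 (ENSMUSG00000020649, chromosome 12, 24708241 to 24714146) encodes the S phase subunit of ribonucleotide reductase, which makes deoxynucleotides. It had 7.01, 4.54, 11.7, 9.51 and 16.7 CPM in the controls and 3.79, 4.87, 8.28, 2.06 and 2.50 CPM after CD95-Ab. The groups overlapped, with treated replicates 2 and 3 inside the control range. Rrm2 fell by 1.21 on the log2 scale (SE 0.41, edgeR FDR 0.0278). The call on Rrm2 was lost without saline replicate 3 (FDR 0.053), saline replicate 5 (-0.94, FDR 0.0664), CD95-Ab replicate 1 (FDR 0.0569) or CD95-Ab replicate 5 (FDR 0.066).

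The other members of this group were not called. Cdc6 and Cdt1, which load the helicase on origins, had log2 fold changes of 0.38 (edgeR FDR 0.44) and -0.20 (FDR 0.519). Cdc25a, the phosphatase that activates Cdk2, had 0.27 (FDR 0.358). Cdc6 was near the lower end of detection, with 3 to 21 counts in the controls and 5 to 15 after CD95-Ab.

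None of the 12 genes of G2 and mitosis was called with edgeR, against 47.3% of all tested genes, none had an unadjusted p under 0.05, and DESeq2 called none. Their log2 fold changes ran from -0.92 to 0.51, with 4 positive, 8 negative and a median of -0.19. The 95% intervals were between 1.26 and 2.48 log2 units wide. Mki67, the proliferation marker Ki-67, had 7.88, 7.97, 2.34, 7.58 and 12.6 CPM in the controls and 7.22, 8.44, 16.7, 4.68 and 9.08 CPM after CD95-Ab. Both groups held a mouse well above and a mouse well under the rest, and the log2 fold change was 0.26 (95% interval -0.60 to 1.12, edgeR FDR 0.612).

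Ccnb1, the B-type cyclin that partners Cdk1, had 1.13, 0.741, 0.338, 1.89 and 3.21 CPM in the controls and 1.19, 1.24, 2.83, 0.484 and 0.797 CPM after CD95-Ab, a log2 fold change of -0.18 (95% interval -1.42 to 1.06). Cdc20, the activator of the anaphase-promoting complex, had the lowest estimate, -0.92 (95% interval -2.12 to 0.28, edgeR FDR 0.189). Top2a, the topoisomerase that untangles chromosomes, had the highest, 0.51 (-0.45 to 1.47, FDR 0.366). Between these lay the spindle checkpoint kinase Bub1 (0.44), cyclin A2 or Ccna2 (0.04), the mitotic transcription factor Foxm1 (-0.05), Cdk1 (-0.20), the Aurora kinases Aurka (-0.37) and Aurkb (-0.40), the mitotic kinase Plk1 (-0.54) and Ccnb2 (-0.59), with edgeR FDR from 0.298 to 0.929. The Ccnb1 to Ccnb2 ratio was -0.24 ± 0.35 in controls and 0.23 ± 0.41 after CD95-Ab on the log2 scale (n = 5, exact permutation test, adjusted p = 0.14). Elovl1 (21.6 to 30.9 CPM) and Exosc9 (8.87 to 15.3 CPM) share exon sequence with Cdc20 and Ccna2 on the other strand. Exosc9 was higher (0.37, edgeR FDR 0.0284) and Elovl1 was not called (-0.10, FDR 0.537).

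Mice of the same group differed in these genes by up to 9.49 times, for Ccnb1 in controls, and the same mice stood apart for nearly the whole set. CD95-Ab replicate 3 was the highest treated mouse for 12 of the 12 genes, and replicate 4 the lowest for 11, with replicate 1 lowest for Foxm1. Among controls, replicate 5 was highest for 10 and replicate 1 for 2 (Top2a and Bub1), while replicate 3 was lowest for 11 and replicate 1 for Aurka. The 12 genes summed to 27.2, 25.7, 10.3, 29.6 and 43.3 CPM in saline replicates 1 to 5, and to 23.5, 29.3, 49.6, 12.8 and 23.6 CPM in CD95-Ab replicates 1 to 5. The ranges covered each other, and the difference between mice within a group exceeded the difference between the group medians of 27.2 and 23.6 CPM.

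Marker sums of other cell types and of hepatocytes were set beside these ranks. The erythroid sum was highest in CD95-Ab replicate 3 and second in replicate 4, the treated mice at opposite ends for mitotic genes. Neutrophil precursor markers, of which 1 of 4 was tested and not called, summed to 2.47, 1.78, 3.82, 2.62 and 6.16 CPM in the treated mice, highest in replicate 5. The hepatocyte (88200 CPM), neutrophil (435), sinusoidal endothelial (275), stellate (451) and cholangiocyte (99.0) sums were all highest among treated mice in replicate 3. In treated replicate 4 the Kupffer (212 CPM), T and NK cell (5.77) and stellate (277) sums were the lowest. Its B cell sum (13.6 CPM) was the highest of the treated mice, and its cholangiocyte sum (83.6) came second. Among controls, replicate 3 had the lowest Kupffer (111 CPM), T and NK cell (1.21) and B cell (0.648) sums and the highest endothelial sum (110), while replicate 5 had the highest hepatocyte (131000) and neutrophil (10.5) sums. The part of these cells in the spread of mitotic genes was not tested.

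**Figure D3:**
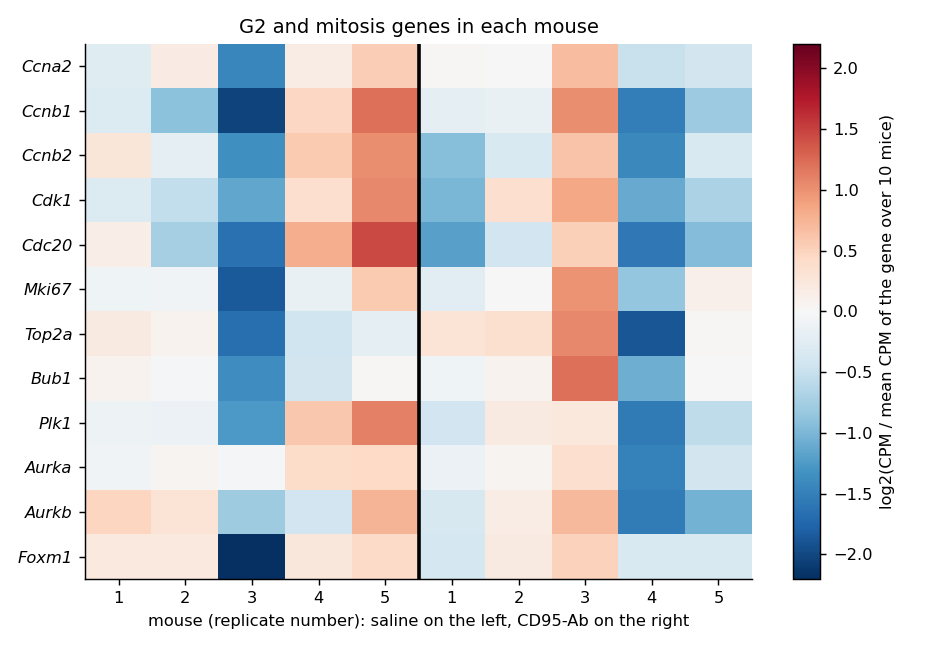
Level of the 12 genes of G2 and mitosis (vertical axis) in each of the 10 mice (horizontal axis, replicates 1 to 5 of saline, then of CD95-Ab), coloured by the log2 of CPM over the gene's mean across mice. CD95-Ab replicate 3 and saline replicate 5 are red and saline replicate 3 and CD95-Ab replicate 4 blue in most genes, while neither side of the dividing line is redder throughout.

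Promoter sequence of mitotic genes is shown because CHR and CCAAT elements are known from promoters of such genes. The part of these elements in the spread between mice was not tested. The 250 bases before the RefSeq start (GRCm38.p6) were searched on both strands for TTTGAA, the CHR core, for CCAAT, and for the E2F words TTTCGCGC, TTTGGCGC, TTTCCCGC and TTTGCCGC. Windows were at hand for 31 of the 38 members, 36 windows in all, and none for Ccna2, Ccnd1, Ccnd2, Ccne2, Aurkb, Foxm1 and Mcm4. Capitals mark each match in the windows of Cdk1 (chr10:69352913-69353162, minus strand) and Cdc20 (chr4:118437344-118437593, minus strand), printed 5′ to 3′ on the strand of the gene, without overlaps between matches.
Cdk1: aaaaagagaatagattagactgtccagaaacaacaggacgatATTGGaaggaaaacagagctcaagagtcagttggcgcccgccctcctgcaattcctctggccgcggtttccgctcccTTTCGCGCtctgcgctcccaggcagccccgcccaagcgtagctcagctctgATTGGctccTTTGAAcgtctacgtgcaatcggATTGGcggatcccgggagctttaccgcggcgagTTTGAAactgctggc
Cdc20: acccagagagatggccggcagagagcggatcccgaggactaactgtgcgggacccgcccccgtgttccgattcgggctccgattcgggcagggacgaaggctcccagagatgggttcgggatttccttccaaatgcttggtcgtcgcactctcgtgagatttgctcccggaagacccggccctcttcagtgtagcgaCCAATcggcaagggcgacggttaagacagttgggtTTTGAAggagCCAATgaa
Cdk1 carried TTTGAA at -71 and -15 from the start, the reverse complement of CCAAT at -208, -80 and -48, and the E2F word TTTCGCGC at -131. Cdc20 carried TTTGAA at -18 and CCAAT at -53 and -8. Of 9 G2 and mitosis genes with a window, 5 held TTTGAA and 9 held CCAAT. The latter was found in 66.7% of member windows against 33.8% of all 32851 windows, and TTTGAA in 22.2% against 16%. An E2F word was found in 22.2% of member windows against 1.86% of all, in Cdc25a, Cdc6, Cdk1, Cdk2, E2f3, Mcm5, Mcm6 and Mcm7. Of these 8 genes with an E2F word, E2f3 alone was called, against 47.3% of all tested genes called in either direction. A match describes the letters of the window and was not tied to binding by any measurement here.

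Both stress-responsive polo-like kinases rose, against 25.4% of all tested genes called higher. Plk1 drives mitosis, whereas Plk2 and Plk3 are immediate-early kinases that respond to serum, DNA damage and other stress. Plk2 (ENSMUSG00000021701, chromosome 13, 110395046 to 110400844) had 4.68, 10, 4.45, 7.12 and 4.51 CPM in the controls and 22.7, 32.4, 39.2, 42.8 and 30.4 CPM after CD95-Ab. The lowest treated mouse stood well above the highest control. Mean Plk2 was 6.16 ± 2.43 CPM in controls and 33.5 ± 7.87 CPM after CD95-Ab (SD, n = 5). Its log2 fold change of 2.45 (SE 0.26, edgeR FDR 1.84e-05) was close to that of Ccnd2.

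Plk3 (ENSMUSG00000028680, chromosome 4, 117128655 to 117133963) had 100.0, 71.4, 48.3, 67.5 and 199 CPM in the controls and 294, 249, 353, 390 and 192 CPM after CD95-Ab. Control replicate 5 exceeded treated replicate 5, and all the other treated mice lay above all controls. Plk3 rose by a log2 fold change of 1.6 (SE 0.35, edgeR FDR 0.00289). Tctex1d4, which shares exon sequence with Plk3 on the other strand, had at most 0.597 CPM.

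Plk1 had 0.870, 0.860, 0.394, 1.42 and 2.04 CPM in the controls and 0.706, 1.08, 1.11, 0.323 and 0.642 CPM after CD95-Ab, a log2 fold change of -0.54 (95% interval -1.48 to 0.40, edgeR FDR 0.328). The groups overlapped. The Plk2 to Plk1 ratio rose from 2.45 ± 0.91 to 5.33 ± 0.78 on the log2 scale (SD, n = 5, exact permutation test, p = 0.00794, adjusted p = 0.0212), with no overlap between groups. The Plk2 to Plk3 ratio, -3.86 ± 1.05 in controls and -3.13 ± 0.38 after CD95-Ab, did not pass (exact permutation test, n = 5, adjusted p = 0.236). The called ratios of Ccnd1 to Ccnd2, E2f1 to E2f3 and Plk2 to Plk1 each had an adjusted p of 0.0635 without CD95-Ab replicate 5 in the exact permutation test, while their values were -2.10, -1.54 and 2.87.

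**Figure D4:**
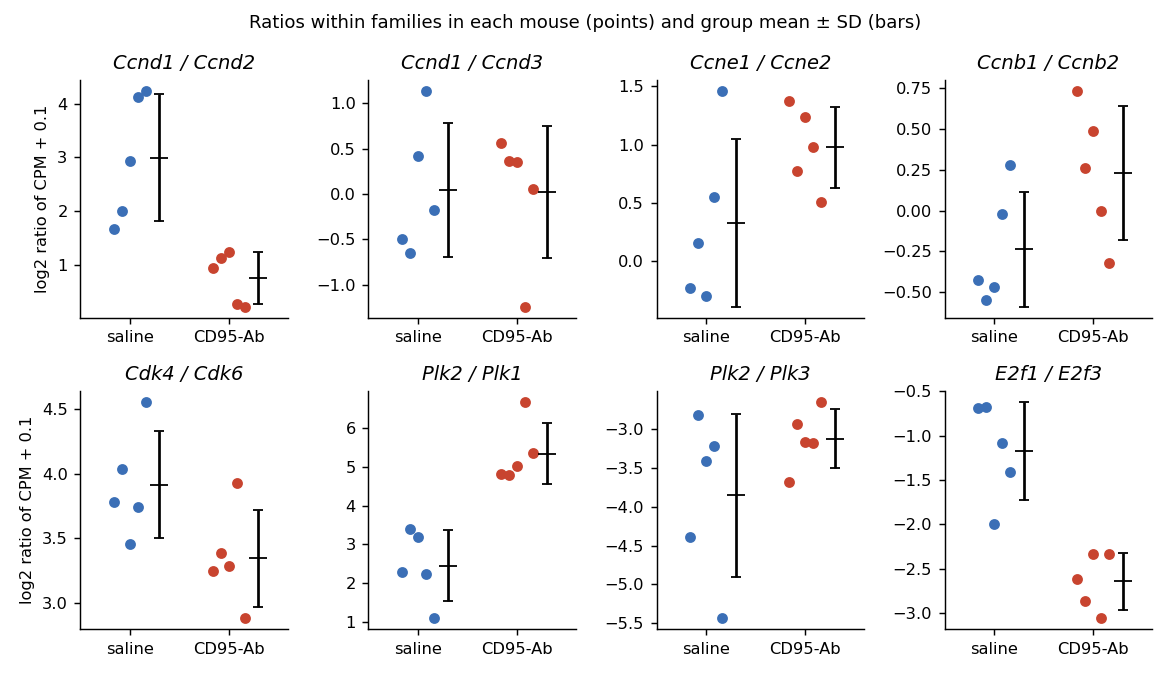
Log2 ratio of CPM + 0.1 (vertical axis, not starting at 0) of 8 pairs of related genes in each mouse, as points with replicates 1 to 5 from left, beside the group mean ± SD. Ccnd1 to Ccnd2, Plk2 to Plk1 and E2f1 to E2f3 show no overlap between saline and CD95-Ab, and the other 5 pairs overlap.

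The promoter windows of the 3 polo-like kinases are shown side by side because Plk2 and Plk3 were called higher and Plk1 was not called. They were searched for the words above, for TGACGTCA, the cyclic AMP response element, and for TGANTCA, the AP-1 site. The windows were chr7:122159185-122159434 (plus strand) for Plk1, chr13:110394794-110395043 (plus strand) for Plk2 and chr4:117133964-117134213 (minus strand) for Plk3, in GRCm38.p6 from RefSeq.
Plk1: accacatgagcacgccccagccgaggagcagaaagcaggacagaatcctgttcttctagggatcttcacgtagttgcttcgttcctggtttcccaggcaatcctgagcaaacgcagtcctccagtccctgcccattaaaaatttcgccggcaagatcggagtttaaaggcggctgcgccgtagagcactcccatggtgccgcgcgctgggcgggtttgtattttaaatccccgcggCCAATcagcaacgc
Plk2: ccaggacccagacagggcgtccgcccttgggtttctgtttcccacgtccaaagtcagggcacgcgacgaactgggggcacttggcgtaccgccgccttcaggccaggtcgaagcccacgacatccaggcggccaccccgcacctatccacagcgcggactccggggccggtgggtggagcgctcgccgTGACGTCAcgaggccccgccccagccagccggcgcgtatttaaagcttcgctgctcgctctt
Plk3: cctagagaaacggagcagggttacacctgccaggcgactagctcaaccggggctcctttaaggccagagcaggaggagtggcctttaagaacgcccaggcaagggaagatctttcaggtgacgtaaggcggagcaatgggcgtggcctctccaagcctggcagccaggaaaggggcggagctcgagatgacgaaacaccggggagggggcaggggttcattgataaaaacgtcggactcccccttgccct
Plk1 held 1 CCAAT at -14, Plk2 held 1 TGACGTCA at -62, and Plk3 held none of the words. TGACGTCA was found in 2 member windows, Plk2 and Mcm5, or 5.56% against 1.55% of all windows. The AP-1 word was in 0 member windows, against 6.75% of all.

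Levels between genes were compared per transcript length, with the deposited FPKM, fragments scaled for transcript length and library total. In control livers Plk3 stood first with a mean of 41.7 ± 20.8 FPKM (SD, n = 5), followed by Cdk4 with 23.8 ± 2.88, Pcna with 15.1 ± 0.943, Ccnd3 with 12.0 ± 1.46 and Ccnd1 with 6.95 ± 3.29 FPKM. Bub1 and Cdc6 closed the order with 0.152 ± 0.0642 and 0.104 ± 0.0518 FPKM. Of 37 neighbouring pairs in this order, only Cdk4 over Pcna had ranges that did not overlap. In controls 16 of the 38 genes averaged under 1 FPKM, among them 7 of the 12 genes of G2 and mitosis. After CD95-Ab, Ccnd2 moved from place 32 to place 10 with 2.77 ± 0.840 FPKM, and Plk2 from place 13 to place 5 with 11.6 ± 1.52 FPKM.

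The wider cell cycle was described with 3 lists of other genes. Among 30 tested regulators of G1, 10 were higher and 5 lower with edgeR (33.3% and 16.7%, against 25.4% and 22.0% of all tested genes), with a median log2 fold change of 0.14. Myc, the growth factor-induced transcription factor, had 2.28 to 5.06 CPM in controls and 31.3 to 79.4 CPM after CD95-Ab (log2 fold change 3.78, SE 0.33, FDR 4.08e-06). The antiproliferative genes Btg2 (3.25, FDR 8.74e-05) and Btg1 (1.43, FDR 6.48e-05) rose, and their relative Tob1 fell by 1.03 on the log2 scale (FDR 0.00011). The other 4 lower genes were the CDK inhibitor Cdkn1c (-1.13, FDR 0.0114), the retinoblastoma relative Rbl2 (-0.83, FDR 0.00405), the E2F partner Tfdp2 (-1.08, FDR 0.00121) and Lin52 (-0.59, FDR 0.0132), named after their values were seen. The relatives of Rbl2 and Tfdp2 went the other way, as Rbl1 (1.01, FDR 0.0133) and Tfdp1 (0.37, FDR 0.0322) were higher. Also higher were E2f4 (0.41, FDR 0.00919), E2f7 (1.63, FDR 0.0143), Cks1b (1.39, FDR 0.00089) and Fbxw7 (0.67, FDR 0.000958). These higher genes too were named after their values were seen.

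Among 40 tested genes of DNA replication outside the members, 12 were lower and 1, Fen1, was higher (30.0% and 2.5%, against 22.0% lower and 25.4% higher over all tested genes), with a median log2 fold change of -0.32. Mcm10, a helicase-associated replication factor, had 74.0, 65.7, 40.9, 67.4 and 47.8 CPM in the controls and 10.1, 7.36, 7.44, 14 and 8.97 CPM after CD95-Ab. It fell by 2.63 on the log2 scale (SE 0.22, edgeR FDR 3.69e-06) without overlap, while Mcm2, Mcm3 and Mcm4 rose in the same livers. The thymidine kinase gene Tk1 (-1.77, FDR 4.36e-05) and the licensing inhibitor Gmnn (-1.24, FDR 0.000171) were lower as well. Tk1 shares exon sequence with a gene of the other strand that was itself lower, Afmid (-1.44, FDR 4.42e-05). The only higher gene, the flap nuclease Fen1 (0.65, FDR 0.0187), which was named after its value was seen, was lost when CD95-Ab replicate 2 was left out, leaving 0. Tmem258 overlaps Fen1 on the other strand, had 12.9 to 27.4 CPM and was not called (0.31, FDR 0.198).

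Among 48 tested mitosis genes outside the members, 3 were higher and 5 lower (6.25% and 10.4%, against 25.4% and 22.0% of all tested genes), with a median of -0.05. Ccnf, a cyclin of the ubiquitin ligase SCF, fell by 1.46 on the log2 scale (SE 0.22, edgeR FDR 0.000238), from 13.4 ± 3.34 to 4.84 ± 1.24 CPM (SD, n = 5). The kinetochore genes Spc25 (-1.03, FDR 0.00383) and Spc24 (-1.21, FDR 0.00902) and the centrosome kinase Nek2 (-1.08, FDR 0.00599) fell too. Outside the rule for naming, the fifth lower gene was the centromeric histone Cenpa (-0.83, FDR 0.0133), and the higher genes were the phosphatase Cdc25b (1.25, FDR 0.0195), the centriole kinase Plk4 (0.62, FDR 0.0377) and the checkpoint protein Bub3 (0.37, FDR 0.0147). Cdc25b shares exon sequence with a gene of the other strand that was itself higher, Spef1 (1.33, FDR 0.00308). The same mice stood apart here as in the members, as CD95-Ab replicate 3 was the highest treated mouse for 40 of 48 genes and saline replicate 3 the lowest control for 41. Without CD95-Ab replicate 3 the counts were 1 higher and 8 lower, and without saline replicate 3 there were 8 lower.

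**Figure D5:**
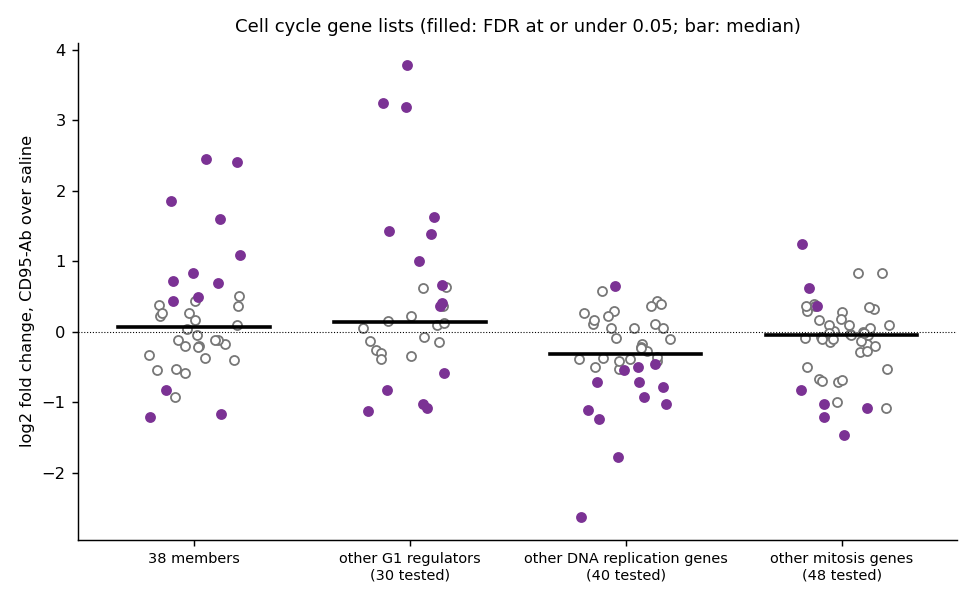
Log2 fold change (CD95-Ab over saline, vertical axis) of each tested gene in 4 groups of cell cycle genes, the 38 members and 3 lists of other genes, with filled points for an FDR of 0.05 or less and a bar at the median. The replication list has its bar at -0.32 and 12 filled points under 0, whereas the bars of the other 3 groups lie at 0.07, 0.14 and -0.05.

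Markers of other cell types were counted in the same livers, in which 25.4% of all tested genes were called higher. Neutrophil markers were higher in 6 of 6 tested, from a summed 4.08 to 10.5 CPM in controls to 109 to 435 CPM after CD95-Ab. Of sinusoidal endothelial markers 5 of 6 were higher (44.8 to 110 CPM against 146 to 275), of stellate cell markers 3 of 5 (115 to 159 against 277 to 451), and of cholangiocyte markers 3 of 4 (2.96 to 4.58 against 23.7 to 99.0). The rise of the cholangiocyte sum was mostly that of Sox9, from a mean of 1.91 to 58.4 CPM. Krt7, which was not called, Krt19 and Epcam averaged 1.56, 2.63 and 1.53 CPM after CD95-Ab. Of T and NK cell markers 5 of 6 were higher (1.21 to 5.25 CPM against 5.77 to 11.6), of B cell markers 3 of 4 (0.648 to 3.68 against 2.28 to 13.6), and of Kupffer cell markers 2 of 6 (111 to 387 against 212 to 515). Among these lists the Kupffer count lay closest to the share over all tested genes. No list had a marker at 0 in all 10 mice. The part of these cells in the higher and lower calls on cell cycle genes was not tested.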

How the data were processed

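Liver RNA of 5 saline-injected and 5 CD95-Ab-injected mice was analysed, each mouse being a biological replicate with its own library, grouped by the sample labels. The authors mapped and quantified reads with RSEM 1.2.19 and deposited, per gene and mouse, expected counts that are whole numbers without normalization. They also deposited FPKM values, scaled for transcript length and library total, which were used here only to order genes by level. RSEM shares reads among overlapping or similar genes, and the genome build and mouse annotation release were not given in the sources used here. A GENCODE mouse release 21 (GRCm38) symbol matched 37606 of 38922 identifiers.

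Genes were kept by filterByExpr (minimum count of 10), scaled with TMM and tested with edgeR 4.0.16 (R 4.3.3) on group alone, with the FDR and log2 fold change thresholds of the study (0.05 and 2). Standard errors came from the F statistic and intervals cover 95%. Ratios within families were compared with two-sided exact permutation tests (pseudocount 0.1 CPM, scipy 1.17.1, Python 3.11.15), adjusted over 8 pairs. The code was tested on simulated counts. Alternatives were DESeq2 1.42.0, other filters, factors and thresholds, a replicate block, and fits that left out 1 mouse at a time.

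Members and lists were chosen with earlier results of these data known, so their counts are not independent support. Named with values per mouse were all D-type cyclins and E2F members and every member called with a log2 fold change of at least 1. The 4 genes of lowest FDR in each pathway list, Cdkn1a and Myc were named as well, except 1 gene that is not reported here. Cdk6, Pcna, Mki67, Ccnb1 and Plk1 were given per mouse after their values were seen. Promoter windows came from RefSeq.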

Additional observations from a re-analysis of the deposited data

Results flagged for a closer look

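In 76 groups of 5 values (38 genes in both groups), 6 held a mouse set apart from the other 4 by Dixon's criterion, and chance alone marks about 1 group in 20. Saline replicate 5 was the highest control for 4 of the 6: Ccnd3 at 30.9 CPM with the others at 19.6 to 21.8, Ccne1 at 3.54 CPM with the others at 1.25 to 1.69, Cdk4 at 61.1 CPM with the others at 40.0 to 44.5, and Pcna at 25.0 CPM with the others at 19.3 to 20.7. Foxm1 was lowest in saline replicate 3, at 0.254 CPM with the others at 1.36 to 1.56. Cdkn2c was highest in CD95-Ab replicate 3, at 2.47 CPM with the other treated mice at 1.56 to 1.76, and this mouse still lay under every control.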

How the results depend on the processing

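The 38 members were recomputed under alternatives giving 679 single values, of which 635 kept their direction and side of the threshold, 19 lost the call, 5 gained it and 20 changed sign, all 20 in members called in neither setting. Members counted as lower numbered 5 with upper-quartile factors and 1 at an FDR of 0.01. Other mitosis genes higher numbered 1 with no filter, 1 with unadjusted totals and 0 at an FDR of 0.01, and lower 9 with unadjusted totals and 8 with DESeq2. Other replication genes higher numbered 0 with unadjusted totals and 0 at an FDR of 0.01, and other G1 regulators lower numbered 3 at an FDR of 0.01. Sign changes were Ccna2 at -0.05 (upper-quartile factors) and -0.02 (unadjusted totals). The cause was not tested. The median of all tested genes was -0.071 with upper-quartile factors and -0.075 with unadjusted totals.

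With each mouse left out in turn, members numbered 9 to 10 higher, 2 to 4 lower and 2 to 3 higher past both thresholds, and their median ranged from -0.10 to 0.21. Other G1 regulators numbered 9 to 11 higher and 5 to 6 lower, replication genes 0 to 1 and 11 to 14, and mitosis genes 1 to 4 and 5 to 8. Ratios ranged from -2.56 to -1.92 for Ccnd1 to Ccnd2, 2.54 to 3.11 for Plk2 to Plk1, -1.67 to -1.35 for E2f1 to E2f3, 0.49 to 0.93 for Ccne1 to Ccne2, -0.72 to -0.41 for Cdk4 to Cdk6 and -0.20 to 0.29 for Ccnd1 to Ccnd3. Log2 fold changes that crossed 0 ranged from -0.04 to 0.45 for Ccne1, -0.18 to 0.23 for Ccna2, -0.31 to 0.07 for Foxm1, -0.01 to 0.43 for Ccnd1, -0.29 to 0.00 for Mcm6, -0.68 to 0.35 for Ccnb1, -0.59 to 0.19 for Cdk1, -0.21 to 0.01 for Cdk4 and -0.07 to 0.50 for Mki67.

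Replicate numbers did not pair the mice, as correlations of same-numbered mice ran from -0.274 to 0.257 and not every mouse correlated best with its own number. With the replicate block, 9 members were higher and 3 lower, Cdk6 was not called (0.48, edgeR FDR 0.0689) and Foxm1 was at 0.02. In the paired ratios -2.23 (Ccnd1 to Ccnd2), 2.88 (Plk2 to Plk1) and -1.47 (E2f1 to E2f3), the exact test over 5 pairs cannot go below 0.0625, and the adjusted p was 0.167 for each. Depth limited Cdc6 most, with as few as 3 counts in a mouse.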
